A study of Saccharomyces cerevisiae with 24 samples.

Results

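The yeast mitochondrial genome encodes 8 proteins, and their transcripts were followed here in 11 strains that each lack a cytosolic ribosomal protein gene. The genes are COX1, COX2 and COX3 (catalytic core of cytochrome c oxidase, complex IV), COB (cytochrome b of complex III), ATP6, ATP8 and OLI1 (membrane part of the ATP synthase) and VAR1 (a protein of the mitochondrial small ribosomal subunit). All probe sets of the array annotated to these 8 genes were taken, by systematic names that start with Q0: 20 of the 9275 non-control probe sets. Of the 20, 14 carry only the member's name and 6 also carry names of intron-encoded genes. They were chosen by name from the log2 signals of these same arrays in all 12 strains, with earlier results known, so their values are a description.

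The deletion strains rps0a, rps0b, rps18a and rps18b lack a gene of the small ribosomal subunit, and rpl7a and rpl7b, rpl12a and rpl12b, rpl22a and rpl22b, and rpl14a lack one of the large subunit. They were set against wild-type BY4741, the haploid laboratory strain with which they are isogenic per the design text. All 12 strains were grown in YPD, a rich glucose medium, at 30 °C in 50 mL cultures to early log phase, and each has 2 biological replicates, 24 Affymetrix YG-S98 arrays in all. The design asked whether the 2 copies of a duplicated ribosomal protein gene differ in their cellular effects. BY4741 carries deletions of HIS3, LEU2, MET17 and URA3 by its published genotype: URA3 was above background on 0 arrays and MET17 on 6, while LEU2 was above it on 22 and HIS3 on 24.

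Yeast mitochondrial DNA is transcribed by a single-subunit polymerase, Rpo41, from promoters of its own, and several genes share long precursor RNAs. COX1 and COB hold introns, and some of these introns are read in frame with the upstream exons to give maturases or endonucleases (AI1 to AI5_ALPHA in COX1, BI2 to BI4 in COB). The encoded subunits assemble with nuclear-encoded partners, so complexes III, IV and the ATP synthase are built from both genomes, and growth on glucose represses many of the nuclear genes. Mature mitochondrial mRNAs of this yeast lack poly(A) tails, whereas per the labels the cRNA was made from cDNA primed with oligo-dT. How much of a signal reflects priming and how much transcript amount was not tested. A bulk array also cannot tell fewer cells with mitochondrial DNA from less RNA per cell.

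A signal below is the deposited linear intensity of a probe set on an array. The background of an array is the 95th percentile of its 19 controls for sequences absent from yeast. A difference is deletion minus wild type in log2 units after quantile normalization, with its standard error (SE) from a limma fit of 12 strain means, whose spread is pooled over all strains. Array medians were 36.3 to 61.4 against backgrounds of 5.55 to 30.8, the highest background being that of rps0a replicate 2, and replicates correlated at 0.958 to 0.981 over all probe sets. For 7 deletions the missing gene has an unshared probe set, and its signals were 0.9 to 220.6 in the deletion, against 784.4 to 13128.8 in wild type. The a-specific genes MFA1, MFA2, STE2, BAR1 and AGA2 were above background on all 24 arrays (BY4741 has mating type a), and the alpha-specific genes MF(ALPHA)1, MF(ALPHA)2 and STE3 were above it on 23, 24 and 17, with signals of at most 44, 49.1 and 19.2. Replicate 1 of rpl12a, rpl14a, rpl22b and rps0b had signals of 652.3, 384.3, 294.3 and 255.4 at a 25S rRNA control probe set, against 11.7 and 18.7 in wild type.

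COX1, COB, COX3 and OLI1 were detected, in the sense that at least 1 of their probe sets exceeded the background on 18 or more arrays. Those probe sets are 13 of the 20: all 6 of COX1, all 5 of COB, the single one of COX3 and 1 of the 2 of OLI1. The other 7 exceeded it on 5 or fewer arrays. COX2, ATP6, ATP8 and VAR1 have only such dim probe sets, which were above background on at most 1, 5, 4 and 1 arrays. Among the other 14 probe sets of the mitochondrial genome, AI5_ALPHA, a COX1 intron gene, exceeded background on 19 arrays, and 13 did so on 5 or fewer. Those 13 stand for AI1, AI2, AI3, AI4, AI5_BETA, BI2, BI3, BI4 (2 probe sets), SCEI (the intron endonuclease I-SceI) and Q0255 (3 probe sets).

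**Figure D1:**
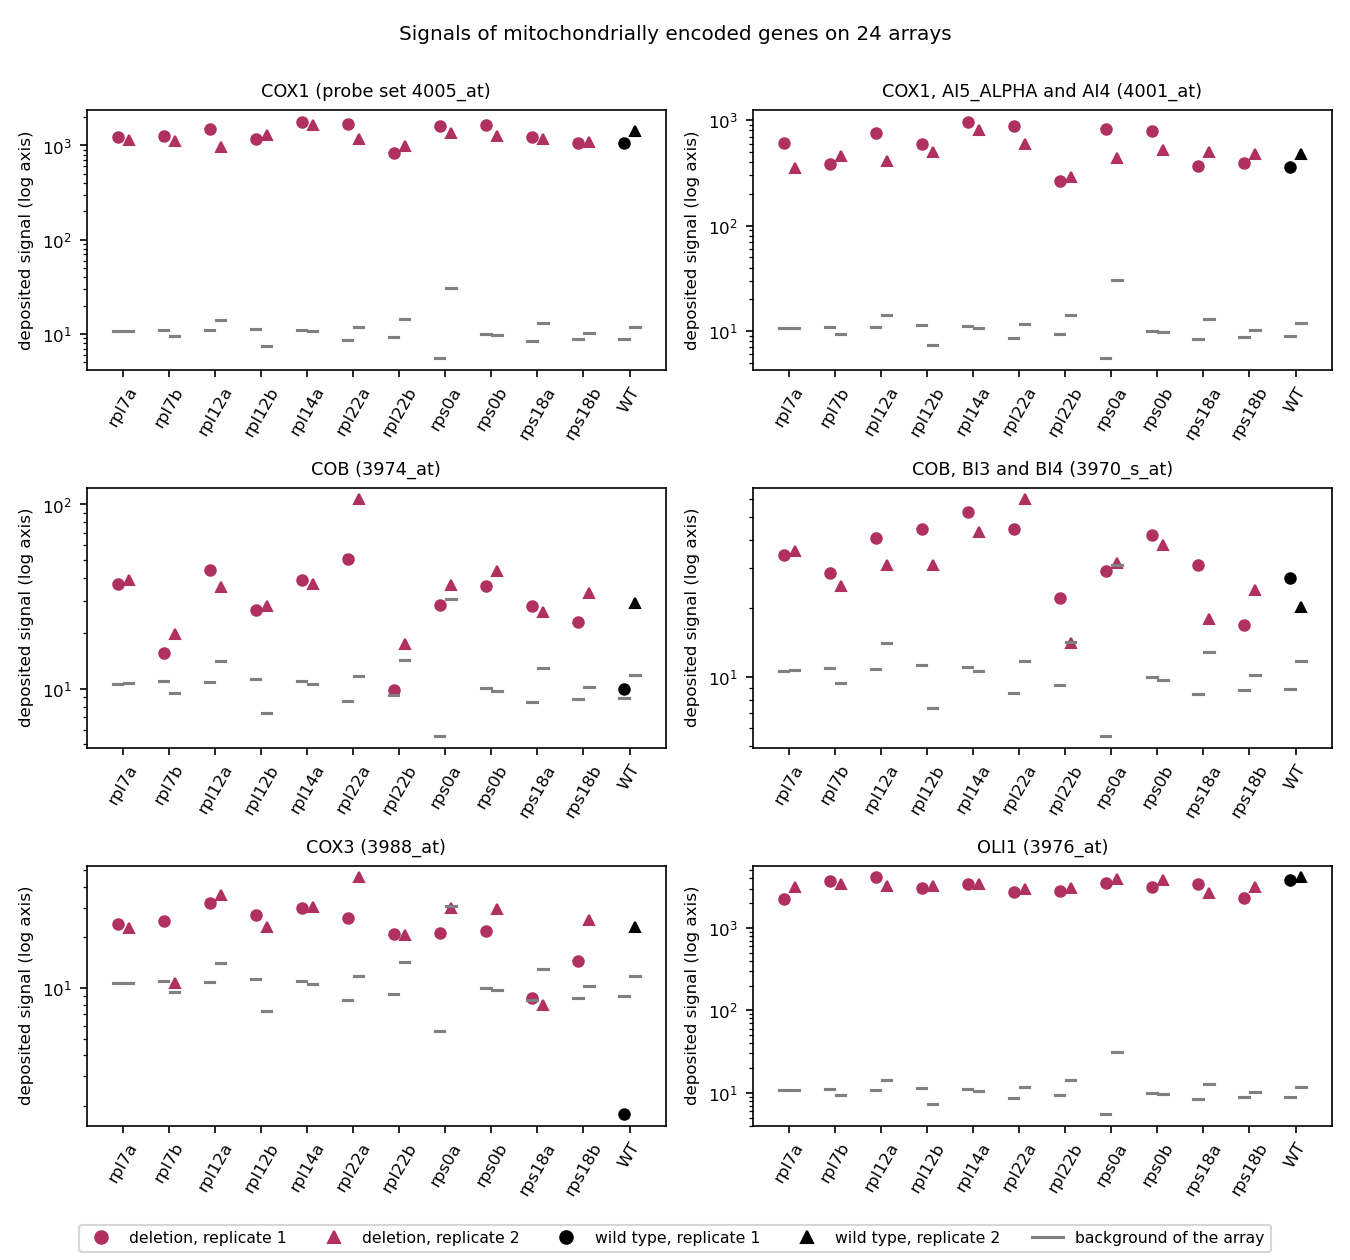
Deposited signal (log axis) of 6 probe sets of COX1, COB, COX3 and OLI1 on 24 arrays, deletions in colour and wild type in black, circles for replicate 1 and triangles for replicate 2; grey bars are the background of each array. Signals of the COX1 probe set 4005_at lie between 834.1 and 1794.7 and those of OLI1 between 2244.8 and 4121.1. Those of COB (3974_at) and COX3 are nearer the background, at 9.8 to 106.5 and 1.8 to 45.4.

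COX1 encodes the largest subunit of cytochrome c oxidase, with the heme and copper centres at which oxygen is reduced. At its own probe set with the highest mean, 4005_at, the signals in replicates 1 and 2 were 1794.7 and 1665.4 in rpl14a, against 1061.6 and 1429.8 in wild type. They were 1692.0 and 1184.4 in rpl22a, 1657.3 and 1247.3 in rps0b, and 1599.1 and 1351.3 in rps0a. The rpl14a arrays were thus both above both wild-type arrays, and the arrays of rpl22a, rps0a and rps0b overlapped the wild-type range. At the other end rpl22b had 834.1 and 980.5, both below the wild-type arrays. Signals in the other 6 deletions lay between 962.9 (rpl12a replicate 2) and 1487.5 (rpl12a replicate 1).

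Normalization mattered for this bright probe set. After quantile normalization COX1 (4005_at) differed from wild type by 0.66 in rps0b, 0.65 in rpl14a, 0.62 in rps18a, 0.57 in rpl22a, 0.49 in both rpl7a and rps0a, 0.42 in rps18b, 0.29 in rpl12b, 0.22 in rpl12a, 0.05 in rpl7b and -0.20 in rpl22b (SE 0.18 each). Both arrays lay above both wild-type arrays in 8 of 11 deletions on that scale but in 1 of 11 on the deposited signals. Without normalization the differences were 0.49 in rpl14a, 0.25 in rps0a, 0.22 in rps0b, 0.20 in rpl22a and -0.45 in rpl22b, while those of rpl7a, rpl7b, rpl12a, rpl12b, rps18a and rps18b changed sign and lay between -0.19 (rps18b) and -0.01 (rpl12b). With each array centred on its median, rpl22b alone was below wild type (-0.24), rpl14a was highest (0.49), and the other 9 lay between 0.02 and 0.28. So at 4005_at, 4 deletions (rpl14a, rpl22a, rps0a, rps0b) had higher values than wild type and rpl22b a lower one under all 3 scalings. Without normalization the median of all probe sets itself shifted by -0.36 (rps18b) to 0.09 (rps0a). In rpl22b the difference rested on replicate 1: without it, the value was 0.02. Only 1 of the 11 gaps between neighbours in the order of strain means, that of 0.20 between rpl22b and wild type, exceeded the spread within strains (SD 0.18).

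A second bright probe set, 4001_at, is shared by COX1 and the intron genes AI5_ALPHA and AI4, and its differences were wider. Signals were 970.8 and 799.6 in rpl14a, 881.5 and 588.9 in rpl22a, and 788.0 and 521.4 in rps0b, against 360.4 and 479.4 in wild type, with no overlap in any of the 3. They were 594.2 and 496.4 in rpl12b and 267.6 and 291.8 in rpl22b, also outside the wild-type range, the first pair above it and the second below it. The differences (SE 0.31) were 1.15 in rpl14a, 1.01 in rpl22a, 0.89 in rps0b, 0.60 in rpl12b and -0.36 in rpl22b. Without normalization they were 1.08, 0.79, 0.62, 0.39 and -0.57 in the same order. The other 6 deletions lay between 0.10 (rpl7b) and 0.60 (rps0a), and between 0.01 (rpl7b) and 0.52 (rps0a) without normalization. For rpl14a and rpl22a the values without their own replicate 1 were 1.12 and 0.79. For rps0b it was 0.67. At the 25S rRNA control rpl22a had 10.6 and 15.2, against 11.7 and 18.7 in wild type, and the part of the rRNA signal of rpl14a and rps0b in these values was not tested.

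The 4 dimmer COX1 probe sets differed among themselves. At 3996_s_at, which spans COX1 and 5 intron genes, signals were 61.3 and 53.9 in rpl22a against 7.4 and 22.0 in wild type, a difference of 2.19 ± 0.34 (SE), and 10 of 11 deletions lay above both wild-type arrays after normalization. Wild-type replicate 1 is below its background of 8.94 there, and without that array the rpl22a difference was 1.51 and that of rpl22b changed to -0.28, against 0.40 with it. At 4008_at, which carries the COX1 name alone, rpl22a had 132.7 and 113.2 and rpl14a 146.0 and 63.4, against 28.8 and 85.6 in wild type, so rpl22a was above both wild-type arrays and rpl14a was not. By contrast 4003_s_at (COX1 and AI5_ALPHA) spanned -0.47 (rpl22b) to 0.35 (rps0a), and wild type ranked 7 of 12 there. At 4007_at, which also carries the COX1 name alone, the highest differences were again those of rpl22a (0.69) and rpl14a (0.67). The lowest were those of rpl7b (-0.43) and rps0a (-0.36). Both rps0a arrays lay below both wild-type arrays there after normalization and overlapped them on the deposited signals. All 6 COX1 probe sets gave a positive difference in rpl14a, rpl22a and rps0b, also without normalization and without wild-type replicate 1, and 1 of 6 did so in rpl22b (0 without wild-type replicate 1).

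The intron gene AI5_ALPHA, by its own probe set, was highest in 3 of these strains, at low signal. It had signals of 37.2 and 22.1 in rps0b, 30.3 and 18.1 in rpl22a and 28.1 and 20.6 in rpl14a, against 14.2 and 15.3 in wild type. These pairs lay above both wild-type arrays, with differences of 0.94, 0.64 and 0.62 (SE 0.36). In rpl22b the signals of 7.3 and 8.3 were not above background.

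**Figure D2:**
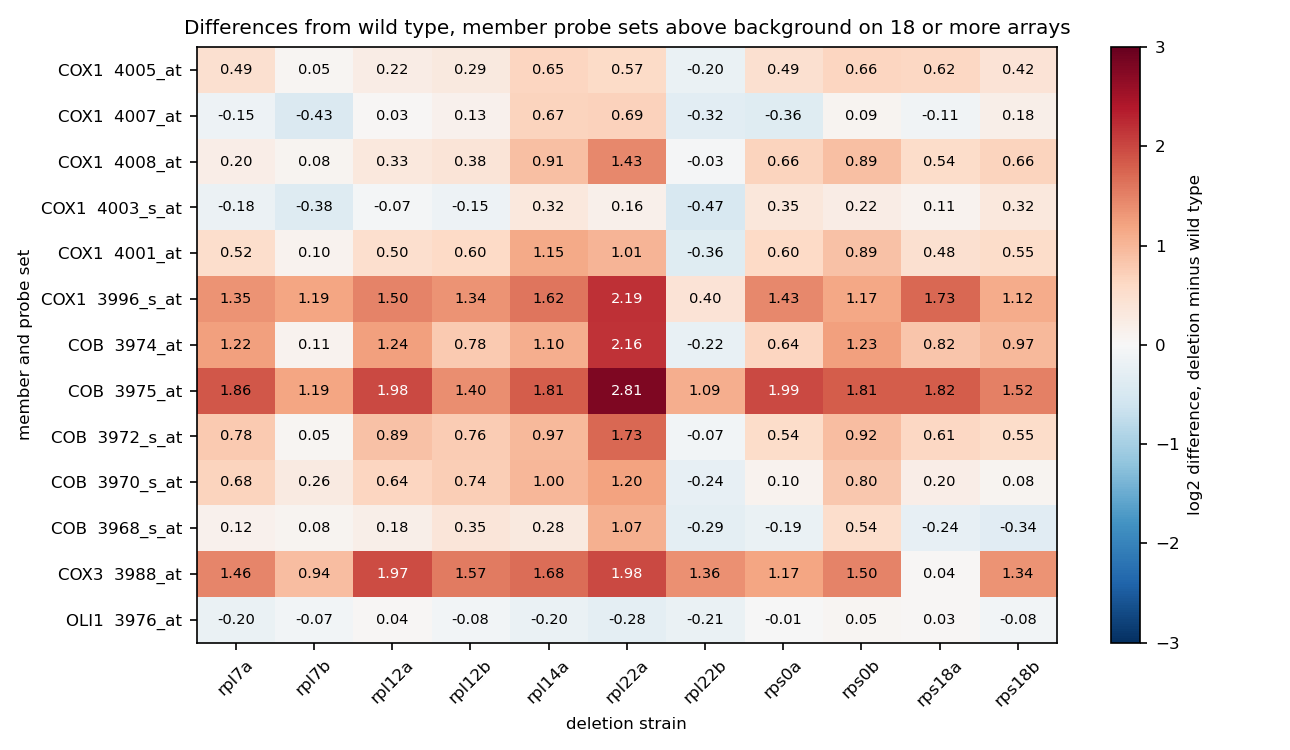
Log2 difference (deletion minus wild type, quantile-normalized) of the 13 detected probe sets of COX1, COB, COX3 and OLI1 in 11 deletions; red is higher and blue lower in the deletion. The rpl22a column is positive in 12 of 13 cells and the rpl22b column in 3 of 13; the row of COB 3975_at, which reaches 2.81 in rpl22a, has both wild-type arrays below background.

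COB encodes cytochrome b, the subunit of complex III that carries the quinone sites, and its signals were low, near the background on some arrays. They were above background on all 24 arrays at 3974_at and on 18 to 23 arrays at its other probe sets. At 3974_at they were 50.8 and 106.5 in rpl22a, against 10 and 29.2 in wild type. They were 43.9 and 35.7 in rpl12a, 36.1 and 43.8 in rps0b, 37.0 and 39.0 in rpl7a, and 38.9 and 36.8 in rpl14a. These 5 deletions were above both wild-type arrays, and rpl22b, with 9.8 and 17.5, overlapped them. The differences (SE 0.44) were 2.16 in rpl22a, 1.24 in rpl12a, 1.23 in rps0b, 1.22 in rpl7a, 1.10 in rpl14a and -0.22 in rpl22b, and from 0.11 (rpl7b) to 0.97 (rps18b) in the other 5. Without normalization no sign changed, and the range ran from -0.38 (rpl22b) to 2.11 (rpl22a). The spread within strains (SD 0.47) was exceeded by 2 of 11 gaps in the order of strain means, that of 0.92 below rpl22a and that between rps0a and rpl7b.

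The wild-type reference for 3974_at rests on arrays that differed by 1.37. Without wild-type replicate 1, the lower of them, rpl22a stayed above wild type (1.48), rpl7a, rpl12a and rps0b lay at 0.54, 0.55 and 0.55, rpl14a at 0.41, and rps0a (-0.04), rpl7b (-0.58) and rpl22b (-0.91) were below it. Without rpl22a replicate 2, the brightest array, the rpl22a difference was 1.53. A probe set at which wild-type replicate 1 is the higher, 3970_s_at (COB, BI3 and BI4), had 44.4 and 59.9 in rpl22a and 52.8 and 43.0 in rpl14a, against 27.1 and 20.3 in wild type. Its differences were 1.20 in rpl22a, 1.00 in rpl14a, 0.80 in rps0b, 0.74 in rpl12b, 0.68 in rpl7a and 0.64 in rpl12a (SE 0.25), with no overlap in any of these 6, and -0.24 in rpl22b. Both probe sets thus put rpl22a highest and rpl22b lowest of the 12 strains, while rps0a, rps18a and rps18b had larger differences at 3974_at, where wild-type replicate 1 was low.

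At the remaining COB probe sets rpl22a was again the highest strain. At 3972_s_at (COB and BI4) rpl22a had 34.8 and 62.4 and rpl22b 11.6 and 13.4, against 10.5 and 20 in wild type, with differences of 1.73 and -0.07. At 3968_s_at, which also spans BI2 and BI3, rpl22a differed by 1.07 and the other deletions by -0.34 (rps18b) to 0.54 (rps0b). At 3975_at neither wild-type array was above background (4.7 and 4.3), so only bounds can be given, taken against the lowest normalized signal above background of each array: rpl22a was at least 3.18-fold higher, rps0a at least 1.80-fold, rpl12a at least 1.79-fold and 7 others at least 1.04-fold to 1.64-fold, with 1 of 2 arrays above background in rpl7b and in rps18b. In rpl22b neither array of 3975_at was above background, and no fold is given.

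COX3 encodes a core subunit of cytochrome c oxidase next to Cox1. Its signals were 26.1 and 45.4 in rpl22a and 31.9 and 35.6 in rpl12a, against 1.8 and 23.1 in wild type, where replicate 1 was not above background. Those deletions were above both wild-type arrays, and rps18a, with 8.7 and 8.0, was between them. Differences ran from 0.04 in rps18a to 1.98 in rpl22a (SE 0.61). Their direction rested on the wild-type array: without replicate 1 the range was -1.22 (rps18a) to 0.72 (rpl22a), with rpl7b (-0.32) and rps0a (-0.09) also below wild type, and without replicate 2 it was 1.30 to 3.24. Without normalization rps18a was at -0.13 and the other 10 deletions stayed above wild type.

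OLI1 encodes subunit 9, the proton-carrying ring of the ATP synthase. Its bright probe set, 3976_at, had 2718.0 and 3002.5 in rpl22a and 2244.8 and 3143.9 in rpl7a, against 3852.8 and 4121.1 in wild type. Both deletions lay below wild type on the deposited signals, as did 7 others. After quantile normalization the differences were small, -0.28 (rpl22a) to 0.05 (rps0b) with an SE of 0.18, and none of the 11 gaps between neighbouring strains exceeded the spread within strains (SD 0.18). Without normalization they were -0.58 (rpl7a) to -0.09 (rps0a), so rpl12a, rps0b and rps18a, at 0.04, 0.05 and 0.03 after normalization, changed sign. The second OLI1 probe set, 3993_at, was above background on 1 array and had signals of 0.7 to 6.6, so the probe sets of this gene disagree. In rpl22a the COX1 and OLI1 differences thus had opposite signs, 0.57 and -0.28 with normalization and 0.20 and -0.48 without it.

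**Figure D3:**
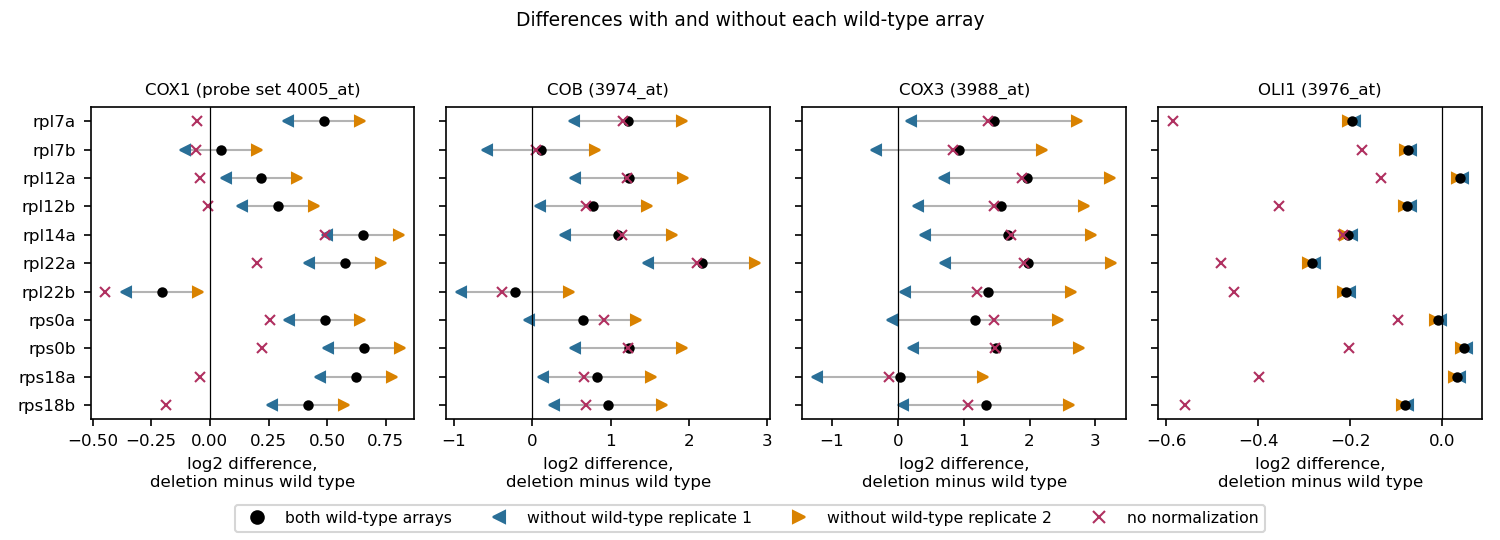
Log2 difference (deletion minus wild type) of 1 probe set each of COX1, COB, COX3 and OLI1 in 11 deletions, computed with both wild-type arrays (black), without either of them (triangles) and without normalization between arrays (crosses). For COX3 the values lie between -1.22 and 0.72 without replicate 1 of wild type and between 1.30 and 3.24 without replicate 2; for OLI1 all 11 lie below 0 without normalization.

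The 4 dim members gave few values that could be read. ATP6, the channel subunit of the ATP synthase, had 7.9 and 34.7 in rpl22a against 0.7 and 1.2 in wild type, and rpl22a replicate 2 was its brightest array. COX2, the copper-bearing subunit that accepts electrons from cytochrome c, exceeded background only on that same array, with 26.4, against 4.3 and 7.8 in wild type. The highest ATP8 signal was 13.3 (rpl14a replicate 1), and the highest VAR1 signal was 17.0 (rps18b replicate 1), the only array on which VAR1 was above background. Replicate 2 of rpl22a was the highest of the 24 arrays at 9 of the 20 probe sets and replicate 1 of rpl22a at 3. Among the 13 detected probe sets they were the highest at 7 and 3, and replicate 1 of rpl22b and of wild type were the lowest at 4 each.

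Medians over the 8 genes, each by 1 probe set, were 0.94 in rps18b, 0.68 in rpl22a, 0.65 in rpl14a, 0.56 in rpl7a, 0.44 in rps0b, 0.28 in rpl12b, 0.22 in rps0a, 0.16 in rpl12a, 0.05 in rps18a, 0.03 in rpl7b and 0.00 in rpl22b. The replicate SD of the array median over the 8 genes was 0.579, and only the medians of rps18b, rpl22a and rpl14a exceeded it. Over all probe sets the medians lay between -0.01 and 0.00. The medians mix detected and dim genes: in rps18b the genes ATP6 (1.00), ATP8 (0.92) and VAR1 (1.28) were near or below background, and its median was 0.15 with values under 14.1 raised to 14.1 and 0.27 without wild-type replicate 1. In rpl22a it was 1.28 without its own replicate 1 and 0.49 without its replicate 2. With the higher floor it was 0 in rpl14a, rpl7a and rpl12b, 0.02 in rps0b and in rpl12a and 0.07 in rps0a. Without wild-type replicate 1 it was 0.27 in rpl7a, 0.12 in rpl12b, 0.06 in rpl12a and 0.03 in rps0a. With its own replicate 1 or 2 left out it was 0.66 or 0.03 in rpl12b and 0.43 or 0.00 in rpl12a.

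Of the 20 probe sets, limma with Benjamini-Hochberg adjustment over 9275 called 5 in rpl22a, where 1.42% of all probe sets were called higher, 2 in rpl7a (3.57%), 2 in rpl14a (1.89%) and 1 in rps18a (0.226%), all higher than wild type. They were 5 COB and COX1 probe sets in rpl22a (3970_s_at, 3972_s_at, 3974_at, 3975_at and 3996_s_at), 3975_at and 3996_s_at in rpl7a, 3970_s_at and 3996_s_at in rpl14a, and 3996_s_at in rps18a. With values under 14.1 raised to 14.1, 3 were called in rpl22a and 1 each in rpl7a, rpl14a and rps18a, and 3975_at was not among them. Over all probe sets 159, 380, 211 and 33 were called higher with that floor, in the same order. The genes were chosen with these contrasts known, so these counts only describe them. The calls changed with the array left out. Those in rpl7a, rpl14a and rps18a were not kept without wild-type replicate 1, and those in rpl22a were kept in part. Without wild-type replicate 2 other deletions gained calls. These fits hold 1 wild-type array, and calls over all probe sets changed in most deletions too, so their counts are not compared. At 3996_s_at the differences in rpl22a, rpl7a, rpl14a and rps18a were 1.51, 0.67, 0.94 and 1.05 without wild-type replicate 1. Without wild-type replicate 2 they were 2.87, 2.03, 2.30 and 2.41, against 2.19, 1.35, 1.62 and 1.73 with both. In rpl22a fewer probe sets were called without its own replicate 2. The deletions rpl7a, rpl14a and rps18a kept no call with either of their own arrays left out. Without normalization between arrays, 4 were called in rpl22a and 1 in rpl7a, and the higher calls over all probe sets were 33 of 82 in rpl22a, 88 of 367 in rpl7a and 12 of 202 in rps18a. With normalization they were 132 of 226, 331 of 607 and 21 of 62. In the other 7 deletions 0 were called by limma with both wild-type arrays and this normalization. Median centring called 1 in rps0a and in rps0b, where 65 and 255 of all probe sets were called (20 and 69 higher). Leaving out the dimmest probe sets called 1 in rpl12b and in rps0b, where 205 and 280 of 6956 were called (145 and 109 higher). With both wild-type arrays and quantile normalization, an unadjusted p under 0.05 held for 2 of the 20 in rpl7b, 6 in rpl12a, 4 in rpl12b, 2 in rpl22b, 3 in rps0a, 8 in rps0b and 6 in rps18b, against 2.65%, 8.58%, 11.5%, 4.26%, 11.8%, 16.1% and 10.6% of all probe sets by the same measure in the same order. At the adjusted threshold, 0.0323%, 0.291%, 2.1%, 0.0216%, 0.28%, 2.61% and 0.323% of all probe sets were called in these 7 deletions. The F test over all 12 strains called 3 of the 20 (3970_s_at, 3996_s_at and 4005_at), against 11.4% of all probe sets.

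Both normalized arrays of a deletion lay above both wild-type arrays for 13 of the 20 in rpl22a (21.6% of all probe sets), 11 in rpl14a (21.4%), 10 in rps0b (22.9%), 10 in rps18b (25.1%) and 9 in rpl7a (23.3%). It was 8 in rpl12a (18.8%), 8 in rps18a (22.3%), 7 in rpl12b (20.7%), 5 in rps0a (19.3%), 2 in rpl7b (16.4%) and 2 in rpl22b (15.5%). Both arrays lay below both wild-type arrays for 4 of the 20 in rpl14a (29.4%), rps0a (22.3%) and rpl22b (14%), 3 in rpl7b (17.2%), 2 in rpl22a (27.6%) and rpl7a (26.7%), 1 in rpl12a (19.7%) and rps18b (21.2%), and 0 in rpl12b (21%), rps0b (23.9%) and rps18a (21.6%). The order of values at the floor is set by the normalization and not by signal. Of the 13 detected probe sets, the counts above and below wild type were 12 and 1 in rpl22a, 10 and 1 in rpl14a, 10 and 0 in rps0b, 8 and 0 in rpl12a, 7 and 2 in rpl7a, 7 and 0 in rpl12b and in rps18a, 6 and 1 in rps18b, 5 and 2 in rps0a, 2 and 3 in rpl7b, and 2 and 4 in rpl22b. On the deposited signals the counts of the 20 above wild type were 12 in rpl22a (17.4%) and in rpl14a (22.2%), 8 in rpl12b (10.7%), 7 in rpl7a (16.6%) and in rpl12a (9.15%), 6 in rps0a (24.4%) and in rps0b (16%), 4 in rps18b (5.87%), 2 in rpl7b (10%) and in rps18a (8.42%), and 1 in rpl22b (6.27%). Those below were 6 in rpl22b (30.7%), 3 in rpl7a (39.2%) and in rpl7b (26.4%), 2 in rpl12b (29.1%), rpl14a (23%), rps18a (44.6%) and rps18b (52.3%), and 1 in rpl12a (16.7%), rpl22a (31.8%), rps0a (15.7%) and rps0b (28.7%). The counts above wild type with normalization were thus higher by 6 in both rps18a and rps18b. The 11 comparisons share the same pair of wild-type arrays, which differed from each other by over 0.5 at 10 of the 20, replicate 2 being higher at 6 (10.8% of all probe sets) and replicate 1 at 4 (10.7%).

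Deletions of the 2 copies of a ribosomal protein gene can be set side by side without the wild-type arrays. For RPL22 the copies were far apart: COB (3974_at) was 2.38 ± 0.44 higher in rpl22a than in rpl22b, the shared COX1 probe set 4001_at 1.37 ± 0.31 higher, and COX1 (4005_at) 0.78 ± 0.18 higher (difference ± SE). OLI1 differed by -0.08. Of the 20 probe sets, 13 had both rpl22a arrays above both rpl22b arrays, against 20.1% of all probe sets, and 1, at the floor, had both below (24.7%). Of the 13 detected probe sets, 12 were above and 0 below. For RPL7, COB was 1.11 ± 0.44 and COX1 (4005_at) 0.44 ± 0.18 higher in rpl7a than in rpl7b, and 7 of the 20 did not overlap in that direction (22.9%) and 2 in the other (30.3%), both at the floor. On the deposited signals the COX1 arrays of that pair, 1222.9 and 1149.0 in rpl7a against 1266.6 and 1106.0 in rpl7b, did overlap.

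**Figure D4:**
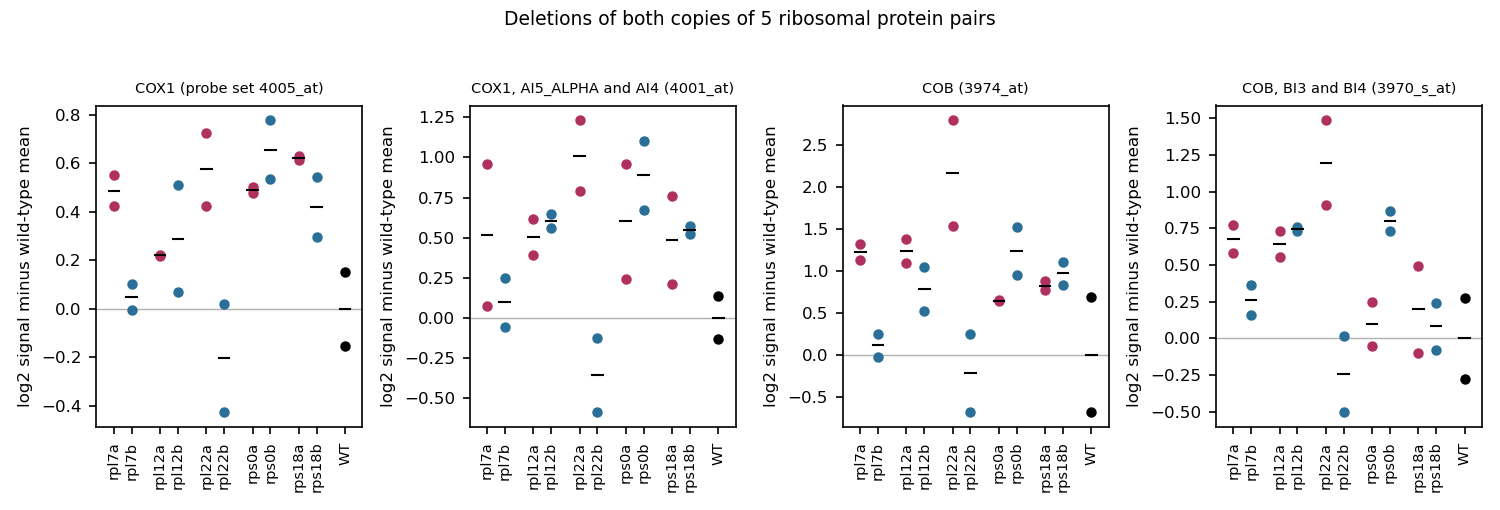
Normalized log2 signal minus the wild-type mean for COX1 (4005_at and 4001_at) and COB (3974_at and 3970_s_at) in deletions of the first copy (red) and second copy (blue) of 5 ribosomal protein gene pairs and in wild type (black); points are arrays and lines are means. The arrays of rpl22a lie above those of rpl22b in all 4 panels.

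The small subunit pairs ran otherwise. In rps0a COB was lower than in rps0b, by -0.59 ± 0.44 at 3974_at and -0.71 ± 0.25 at 3970_s_at. Of the 20, 6 had both rps0a arrays below both rps0b arrays (17.9%) and 1 above (15.4%). Among the 13 detected probe sets, 4 were below and 1 above. The background of rps0a replicate 2 was 30.8, close to its COB signals of 36.7 and 31.7. In rps18a COX3 was -1.31 ± 0.61 against rps18b, with 8.7 and 8.0 in rps18a against 14.5 and 25.3 in rps18b, and 1 of the 2 rps18a arrays was above background, while COX1 and COB differed by 0.20 and -0.14. Of the 20, 3 had both rps18a arrays above both rps18b arrays (14.7%) and 4 below (14.4%). Among the 13 detected probe sets, 2 were above and 2 below. For RPL12, COB was 0.46 ± 0.44 and COX1 -0.07 ± 0.18, rpl12a minus rpl12b. Both rpl12a arrays lay above both rpl12b arrays at 2 of the 20 and below at 2 (17.6% and 20.5% of all probe sets). Among the 13 detected probe sets, 2 were above and 1 below. No p is given for these pairs, because results of the same arrays were known when the genes were chosen.

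Across the 12 strain means COX1 (4005_at) and COB (3974_at) correlated at r = 0.77 (Spearman's rho 0.62), at 0.53 without rpl22b and wild type, the strains farthest from the COX1 median, and at 0.82 without rpl22a. Deviations of single arrays from their strain mean correlated at 0.20 for COX1 and COB and at 0.66 for COB and COX3. COB and COX3 correlated at 0.59, COX1 and COX3 at 0.21, COX1 and OLI1 at 0.02, COB and OLI1 at -0.25 and COX3 and OLI1 at -0.45. Within a gene the median correlation was 0.74 among the 6 COX1 probe sets (0.40 to 0.90) and 0.84 among the 5 COB probe sets (0.50 to 0.98). These values describe 12 points that share arrays and normalization.

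Likeness to the members was measured as Pearson's r over the 12 strain means with the mean profile of the 8 genes, among 4357 genes above background on all arrays. The closest were YIL165C (0.89), ERV1 (0.88), RTT102 (0.87), TSC3 (0.86) and SLX9 (0.84). ERV1 encodes a sulfhydryl oxidase of the mitochondrial intermembrane space, RTT102 a subunit of the SWI/SNF and RSC chromatin remodellers, TSC3 a small activator of serine palmitoyltransferase and SLX9 a factor in small subunit pre-rRNA processing. All 5 had their highest mean in rpl22a. The most opposed were HRD3 (-0.89), PGM1 (-0.88), AIP1 (-0.88), VPS70 (-0.84) and NDC1 (-0.84), each lowest in rpl22a. HRD3 acts in degradation from the endoplasmic reticulum, PGM1 encodes a phosphoglucomutase, AIP1 helps disassemble actin filaments and NDC1 belongs to the nuclear pore. Without wild type and rpl22a, the strains at the ends of the profile, these r values were 0.65 to 0.78 and -0.63 to -0.77, and 4 of the 8 genes in the profile were dim.

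Nuclear genes that act on the same pathway were read beside the members. Over 9 lists with 152 different genes, limma called 8 higher and 2 lower in rpl7a (6.54% of all probe sets were called in that strain), 2 higher in rpl14a (3.33%), 1 higher and 1 lower in rpl12b (2.1%) and in rpl22a (2.44%), and 1 lower each in rps0b (2.61%) and rps18a (0.668%). It called 0 in rpl7b, rpl12a, rpl22b, rps0a and rps18b, where 2, 11, 4, 10 and 16 had an unadjusted p under 0.05. Those are 1.32%, 7.24%, 2.63%, 6.58% and 10.5% of the 152, against 2.65%, 8.58%, 4.26%, 11.8% and 10.6% of all probe sets. In rpl22a the list medians were -0.15 for mitochondrial transcription and RNA processing, -0.22 for gene-specific expression factors, -0.10 for maintenance of mitochondrial DNA, 0.12 for complex III, 0.14 for complex IV, 0.06 for the ATP synthase, -0.21 for the mitoribosome small subunit, -0.02 for retrograde genes and 0.28 for the HAP complex. In rpl14a they were -0.14, -0.16, 0.04, 0.08, 0.23, 0.05, -0.32, -0.05 and 0.10 in the same order. Over all genes the median was -0.01 in rpl22a and -0.03 in rpl14a.

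**Figure D5:**
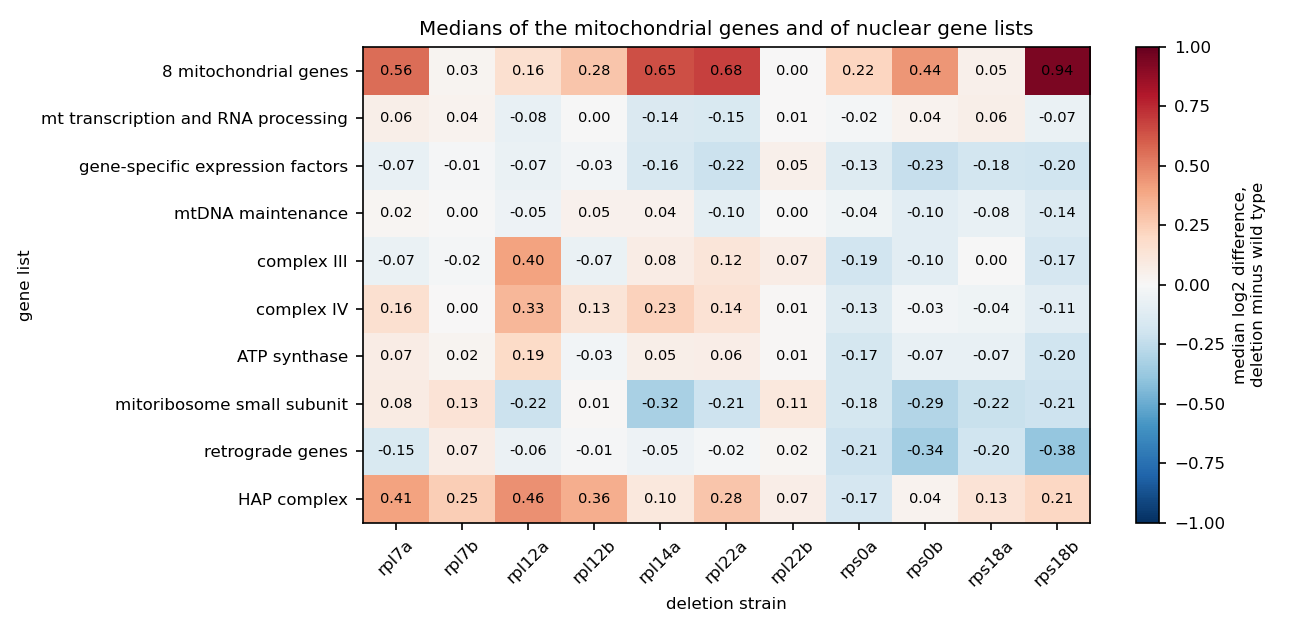
Median log2 difference (deletion minus wild type) of the 8 mitochondrial genes and of 9 lists of nuclear genes in 11 deletions; red is higher and blue lower in the deletion. Medians of the nuclear lists lie between -0.38 (retrograde genes in rps18b) and 0.46 (HAP complex in rpl12a).

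Transcription and RNA processing of mitochondrial genes is served by 27 listed genes, and 2 rose in rpl7a. SUV3, the helicase of the mitochondrial degradosome, had 134.5 and 154.7 in rpl7a against 81.2 and 62.4 in wild type (1.21 ± 0.33, limma adjusted p = 0.0403), and MSS18, needed to splice a COX1 intron, had 65.7 and 59.0 against 36.7 and 31.9 (0.97 ± 0.25, limma adjusted p = 0.0312). Both lie on chromosome XVI, whose 349 genes had a median of 0.97 in rpl7a. With 1 of the 4 compared arrays left out, neither call was kept: adjusted p was 0.0987 for SUV3 and 0.137 for MSS18 without rpl7a replicate 1, 0.201 and 0.120 without rpl7a replicate 2, 0.0787 and 0.0820 without wild-type replicate 1, and 0.252 and 0.198 without wild-type replicate 2. RPO41, the polymerase, differed by 0.25 in rpl7a, 0.16 in rpl22a and -0.09 in rpl14a.

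Of 21 gene-specific expression factors, NCA3, which acts with NCA2 on the ATP8 and ATP6 mRNA, rose in rpl22a and rpl14a. Its signals were 66.5 and 120.1 in rpl22a and 75.6 and 96 in rpl14a, against 36.1 and 23.8 in wild type, without overlap. The differences were 1.71 ± 0.35 (limma adjusted p = 0.0190) and 1.51 ± 0.35 (limma adjusted p = 0.0306). In the other deletions NCA3 was not called and was also above wild type, by 0.07 (rpl7b) to 1.22 (rps0b). For rpl22a the call was lost without rpl22a replicate 2 (0.180) and without wild-type replicate 2 (0.159). For rpl14a it was lost without rpl14a replicate 1 (0.0568), rpl14a replicate 2 (0.246) and wild-type replicate 2 (0.216). Without normalization adjusted p was 0.0770 in rpl22a and 0.0799 in rpl14a. The F test also called NCA3 (adjusted p = 0.0208, limma). PET309 and MSS51, both needed for COX1 expression, were not called in any deletion and differed by -0.64 and -0.58 in rpl22a and by -0.71 and -0.52 in rpl14a. Over all deletions PET309 ran from -1.11 (rpl22b) to -0.02 (rps0a) and MSS51 from -0.58 (rpl22a) to 0.01 (rpl22b).

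Among 21 genes for maintenance of mitochondrial DNA, YHM2, a mitochondrial carrier first found as a suppressor of the loss of ABF2, fell in rpl7a and rpl12b. It had 161.8 and 169.3 in rpl7a and 246.2 and 187.5 in rpl12b, against 358.5 and 404.5 in wild type (-0.93 ± 0.15, limma adjusted p = 0.00201, and -0.63 ± 0.15, limma adjusted p = 0.0414). The rpl7a call held without normalization (0.0416) and with each of the 4 arrays left out. The rpl12b call did not: adjusted p was 0.147 without rpl12b replicate 1, 0.149 without rpl12b replicate 2, 0.196 without wild-type replicate 1, 0.205 without wild-type replicate 2, 0.324 without normalization and 0.133 with median centring. ABF2, the packaging protein of mitochondrial DNA, differed by 0.26 in rpl7a and 0.09 in rpl22a and was not called. By the F test MSH1, the mitochondrial mismatch repair protein, was called as well (adjusted p = 0.0363, limma).

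Partners of the encoded subunits were called in rpl7a, rpl14a, rps0b and rps18a. Of 9 complex III genes, QCR2, a core subunit, rose in rpl7a (426.3 and 333.3, against 250.3 and 311.2 in wild type; 0.73 ± 0.16, limma adjusted p = 0.0145). The QCR2 call was lost without rpl7a replicate 1 (0.146) and without wild-type replicate 1 (0.135). Of 10 complex IV genes, COX6 rose in rpl14a (764.2 and 563.2, against 274.5 and 384.0; 1.03 ± 0.20, limma adjusted p = 0.0107), and that call was lost without rpl14a replicate 1 (0.0725) and wild-type replicate 1 (0.135). COX6 lies on chromosome VIII, whose 202 genes had a median of 0.81 in rpl14a. Of 16 ATP synthase genes, ATP4 (1.00 ± 0.16, limma adjusted p = 0.00200), ATP15 (1.06 ± 0.22, limma adjusted p = 0.0106) and ATP20 (1.05 ± 0.21, limma adjusted p = 0.00840) rose in rpl7a, and QCR2 and these 3 lie on chromosome XVI. ATP4 kept its call with each array left out. ATP15 lost it without rpl7a replicate 2 (0.121), wild-type replicate 1 (0.0646) and wild-type replicate 2 (0.0742), and ATP20 without rpl7a replicate 2 (0.0789) and wild-type replicate 1 (0.0659).

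STF1, a stabilizer of the inhibited ATP synthase, fell in rps0b and rps18a. Its signals were 94.5 and 56.0 in rps0b and 49.5 and 77.8 in rps18a, against 192.8 and 203.3 in wild type, without overlap. The differences were -1.34 ± 0.27 (limma adjusted p = 0.0242) and -1.38 ± 0.27 (limma adjusted p = 0.0346). In rps0b the call was lost without rps0b replicate 2 (0.159), wild-type replicate 1 (0.121) and wild-type replicate 2 (0.106). In rps18a it was lost without rps18a replicate 1 (0.161), wild-type replicate 1 (0.196) and wild-type replicate 2 (0.145). Over all strains the F test called 1 of the 9 complex III genes, 1 of the 10 complex IV genes and 5 of the 16 ATP synthase genes, against 11.4% of all probe sets. Complex III and complex IV had their highest medians in rpl12a (0.40 and 0.33), where none of their genes was called.

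VAR1 is the mitochondrially encoded partner of 33 listed small subunit proteins of the mitoribosome. In rpl7a MRPS16 had 540.8 and 405.9 against 110.7 and 184.5 in wild type (1.98 ± 0.27, limma adjusted p = 0.000688), and MRP2 had 477.3 and 507.0 against 221.0 and 233.6 (1.38 ± 0.23, limma adjusted p = 0.00240), both on chromosome XVI. In rpl12b RSM18 had 375.4 and 234.8 against 131.9 and 110.5 (1.46 ± 0.19, limma adjusted p = 0.00123), and its chromosome V had a median of 0.94 over 208 genes in that strain. All 3 calls were kept with each array left out. List medians were 0.08 in rpl7a and 0.01 in rpl12b.

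Of 12 retrograde genes, which respond to mitochondrial dysfunction or pass its signal on, RTG2, a sensor of that pathway, fell in rpl22a and rpl7a. It had 99.3 and 80.3 in rpl22a and 99.4 and 87.7 in rpl7a, against 172.2 and 139.2 in wild type (-0.63 ± 0.14, limma adjusted p = 0.0329, and -0.53 ± 0.14, limma adjusted p = 0.0362). In rpl22a the call was lost without rpl22a replicate 2 (0.199) and without wild-type replicate 1 (0.288). In rpl7a it was lost without rpl7a replicate 1 (0.105), rpl7a replicate 2 (0.173) and wild-type replicate 1 (0.350). CIT2, the peroxisomal citrate synthase that serves as the usual marker of the pathway, was not called and differed by -0.74 in rpl22a, -0.92 in rpl7a and -1.42 in rps18a. DLD3, a dehydrogenase of the same pathway, was called by the F test (adjusted p = 0.0294, limma). None of the 4 HAP complex genes, which activate respiratory genes, was called, and HAP4 differed by 0.68 in rpl22a and 0.65 in rpl12a.

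Of the 18 calls of nuclear genes in single deletions, 3 were kept without normalization between arrays (MRPS16 and YHM2 in rpl7a, and STF1 in rps18a), 12 with median centring, 16 without the dimmest probe sets and 5 with every array left out in turn. Some calls in rpl7a, rpl12b and rpl14a lie on chromosomes whose medians are 0.81 to 0.97 higher. These positions were given beside them, and their part in the calls was not tested. The calls of YHM2, RTG2 and NCA3 in these strains lie on other chromosomes, XIII, VII and X.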

How the data were processed

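Start values were the deposited intensity values on a linear scale, a single number for each probe set on each array. The summary of probes, any scaling between arrays and the genome build were not given in the sources used here. Leaving out 60 controls of 9335 probe sets left 9275 (6504 with 1 gene name in the platform annotation, 328 with several, 2443 with none). A floor of 3.6, the 10th percentile, replaced 9.71% of values, then log2 values were quantile normalized. Limma 3.58.1 (R 4.3.3), tested on simulated data, fitted 12 strain means with 12 residual degrees of freedom, Benjamini-Hochberg adjustment over 9275 and a threshold of 0.05. With 2 biological replicates a strain, p-values weigh a difference against the spread within strains, pooled over all 12 strains. The number of arrays limits the precision.

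Members and lists were chosen with earlier results of these data known. A gene was read by the probe set of highest mean among those with only its name. Named were all members, up to 3 called genes per list and deletion or by the F test, and the 5 genes most like and most unlike the members. RPO41, PET309, MSS51, ABF2, CIT2, HAP4 and AI5_ALPHA were added after their values were seen. Chromosomes came from the RefSeq yeast gene table. Alternatives included no normalization, centring on array medians, a higher floor of 14.1 (25th percentile), removal of the dimmest 25% of probe sets, a replicate block, and leaving out each array.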

Additional observations from a re-analysis of the deposited data

Results flagged for a closer look

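Control probe sets for cytosolic rRNA, which enter no comparison, exceeded 5 times the background and both wild-type arrays on 4 arrays. The 25S probe set AFFX-25srRnaa_at had signals of 652.3 in rpl12a replicate 1, 384.3 in rpl14a replicate 1, 294.3 in rpl22b replicate 1 and 255.4 in rps0b replicate 1, against 11.7 and 18.7 in wild type. A second 25S probe set, AFFX-25srRnae_at, had 452.3, 134.2 and 68.7 in rpl12a, rpl14a and rpl22b replicate 1. The 18S probe set AFFX-18srRnab_at had 61.7 in rps0b replicate 1. COX1 (4005_at) was high in rpl14a and low in rpl22b, and the part of the rRNA signal in the values was not tested. Without the replicate 1 array the COX1 difference was 0.74 in rpl14a, 0.02 in rpl22b, 0.53 in rps0b and 0.22 in rpl12a.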

How the results depend on the processing

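Counts of called probe sets over the whole array moved most, and the cause was not tested. Without normalization they were 367 in rpl7a (607 as reported), 16 in rpl12a (27), 10 in rpl12b (195), 90 in rpl14a (309), 82 in rpl22a (226), 16 in rps0a (26), 76 in rps0b (242), 202 in rps18a (62), 64 in rps18b (30) and 425 by the F test (1054). The share called higher there was 58 of 90 in rpl14a against 175 of 309, 1 of 16 in rpl12a against 10 of 27, 2 of 10 in rpl12b against 139 of 195, 15 of 76 in rps0b against 95 of 242, 8 of 16 in rps0a against 7 of 26, and 6 of 64 in rps18b against 15 of 30. Median centring gave 121 in rpl12b, 187 in rpl14a, 65 in rps0a and 102 in rps18a. The higher floor gave 4 in rpl22b (2 as reported) and 105 in rps18a, and leaving out the dimmest probe sets gave 115 in rps18a. With the replicate block the counts were 56 in rpl12a, 477 in rpl14a, 373 in rpl22a, 45 in rps0a, 418 in rps0b, 163 in rps18a, 48 in rps18b and 1589 by the F test, and all 18 named calls of nuclear genes were kept. Of the 20 member probe sets the block called 3 in rpl7a, 3 in rpl14a and 2 in rps0b, against 2, 2 and 0 as reported, and as many as reported in the other deletions. Over all probe sets the block called 468 of 853 higher in rpl7a, 267 of 477 in rpl14a and 188 of 418 in rps0b. As reported these were 331 of 607, 175 of 309 and 95 of 242. Same-numbered arrays of different strains had deviations correlated at -0.01 to 0.19 (median 0.06, 19 of 66 strain pairs over 0.1). Whether same-numbered arrays were handled together was not tested. Leaving out 1 compared array gave 233 to 330 in rpl7a, 4 to 13 in rpl7b, 17 to 27 in rpl12a, 52 to 168 in rpl12b, 99 to 169 in rpl14a, 97 to 249 in rpl22a, 6 to 27 in rpl22b, 11 to 457 in rps0a, 50 to 90 in rps0b, 21 to 53 in rps18a and 16 to 36 in rps18b. The 457 in rps0a came without replicate 1, which leaves the array with the background of 30.8. The median over the 8 genes was 0 in rpl14a and 0.15 in rps18b with the higher floor, and with 1 array left out it was 0.48 to 1.28 in rpl22a and 0.27 to 0.83 in rps18b. Medians over the 8 genes were compared with the spread between replicates (SD 0.579), a wide margin, and the smaller moves are given with the medians. No called value changed sign. Signals of COX2, ATP6, ATP8 and VAR1 near background, 2 arrays a strain and the shared wild-type arrays limit what can be read.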
